A study of Mus musculus with 2 samples.

Results

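The neuregulin and ErbB receptor genes examined here were Nrg1, Nrg4, Hbegf, Erbb2, Erbb3, Erbb4 and Egfr, 7 of the 32245 gene symbols in the deposited tables. They were chosen by symbol, and each symbol stood for 1 feature. RNA was sequenced from single nuclei of mouse cardiac tissue in 1 CF-KI library and 1 control library. Both came from male C57Bl6/J mice aged 3.5 months that carried Tcf21-MerCreMer and received tamoxifen. Tcf21-MerCreMer is a tamoxifen-dependent Cre recombinase driven from Tcf21, a gene of fibroblasts and of cells at the heart's surface. CF-KI was Nlrp3-A350V/A350V, homozygous for an activating allele of the inflammasome sensor Nlrp3, and the control was Nlrp3-WT/WT. Per the series record the allele stays silent where Cre is not expressed. The number of animals behind each library was not given in the sources used here. Every difference below is therefore between 2 libraries, with no replicate check and no test, and the intervals (95%) cover counting error only.

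ErbB receptors are tyrosine kinases of the cell surface that signal in pairs after a ligand of the epidermal growth factor family binds. EGFR binds EGF-like ligands, ErbB3 and ErbB4 bind neuregulins, and HB-EGF binds both EGFR and ErbB4. ErbB2 has no ligand of its own and acts as a partner, and ErbB3 has little kinase activity of its own. In the heart, neuregulin 1 from endocardial and endothelial cells acts on ErbB4 and ErbB2 of cardiomyocytes, and this exchange is needed for the trabeculated wall of the embryonic ventricle.

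The CF-KI library held 21603653 UMIs (unique molecular identifiers, 1 per counted RNA molecule) in 15077 barcodes and the control 18040776 in 11257, and 14317 and 10897 nuclei were kept. Nuclei were clustered together without the members among the clustering genes, and classes named from marker genes end in -like. Each library had 50 or more nuclei in 11 of the classes. The median mitochondrial share of a barcode was 14.2% in CF-KI against 3.46% in the control, and 46 barcode sequences occurred in both libraries. Free RNA, the RNA of other cells that enters a droplet, was estimated from markers of cells that a class should not hold. The estimate was 46.5% of the RNA of fibroblast-like nuclei in CF-KI against 24.0% in the control, and 20.03% and 8.44% in cardiomyocyte-like nuclei. It rests on the kept nuclei and not on empty droplets. It can be too high, since it came to 113% in the 10 platelet-like nuclei of the control. Beside a level, the level that free RNA of the whole library's make-up would give is named the free RNA level. Markers of airway epithelium were at 295 to 952 CPM in cardiomyocyte-like, fibroblast-like, endocardial-like, adipocyte-like and atrial cardiomyocyte-like nuclei of the control and at 0 to 0.846 CPM in those of CF-KI. Nlrp3 itself had 40 and 20 UMIs, too few for a check of the genotype by class.

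The 3 ligands and the receptors Erbb4 and Egfr were each highest in a different class. Where a pair of values carries no label, the CF-KI value comes first. Levels are counts per fixed total of non-mitochondrial UMIs (CPM), taken over all nuclei of a class. They are compared between classes and libraries for 1 gene at a time, since counts of 3′ ends do not compare genes. In both libraries Nrg1 was highest in endocardial-like nuclei, Nrg4 in adipocyte-like nuclei, Egfr in fibroblast-like nuclei and Erbb4 in atrial cardiomyocyte-like nuclei. Hbegf was highest in endothelial-like nuclei, where the interval overlapped that of the next class. The same overlap held for Erbb4 in CF-KI, where the atrial level rested on 4 UMIs. Erbb2 and Erbb3 had few UMIs, and the highest classes did not stand apart from each other.

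**Figure D1:**
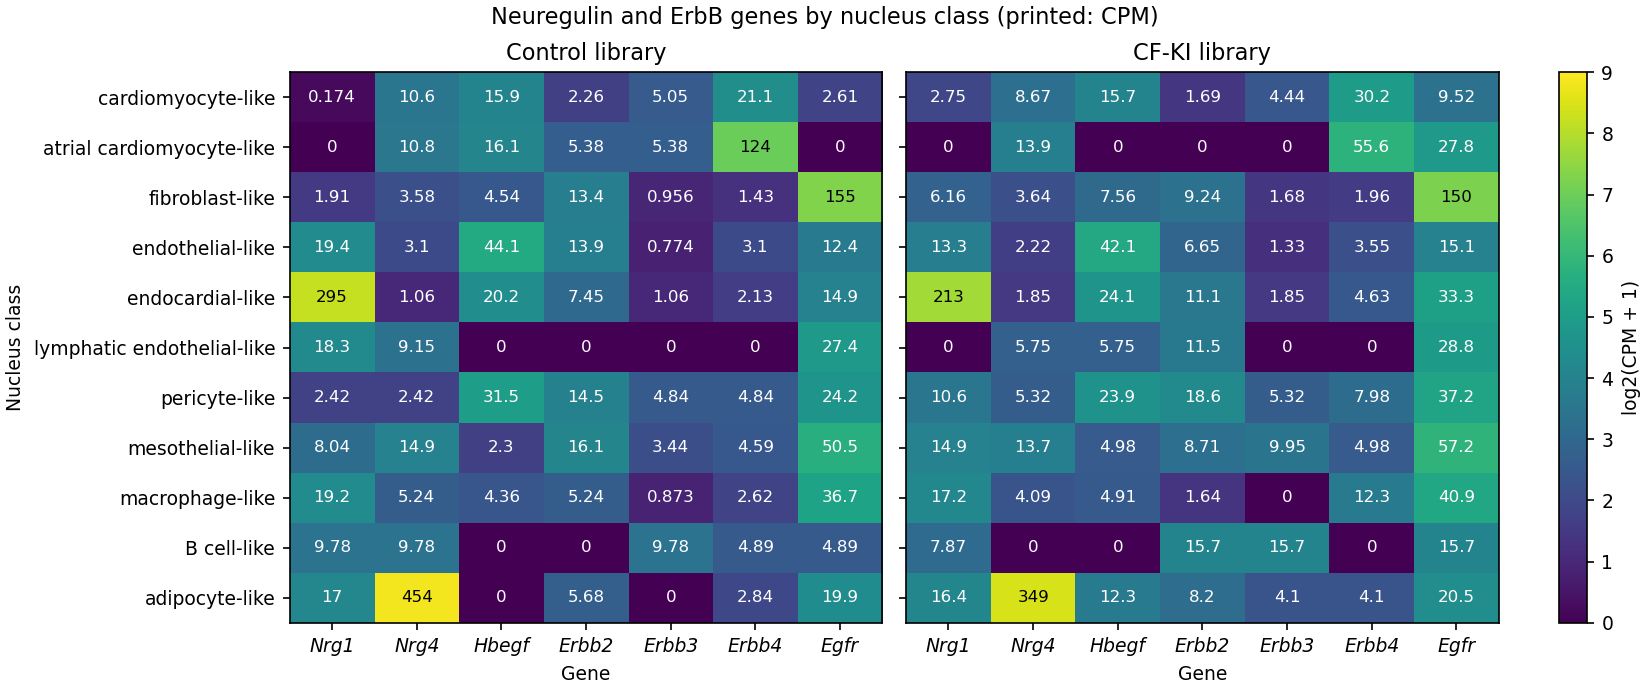
Level of the 7 genes (columns) in the 11 classes compared (rows), in the control library (left) and the CF-KI library (right). Colour gives log2(CPM + 1) and the printed value is the CPM. Nrg1 in endocardial-like nuclei (213 and 295 CPM), Nrg4 in adipocyte-like nuclei (349 and 454 CPM) and Egfr in fibroblast-like nuclei (150 and 155 CPM) stand out in both libraries.

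Nrg1 encodes neuregulin 1, the ligand of ErbB3 and ErbB4, on chromosome 8 (GRCm38, 31814551 to 32884029, minus strand; ENSMUSG00000062991). Endocardial-like nuclei are those with the RNA of the cells that line the heart's chambers. They held 230 of the 344 Nrg1 UMIs of CF-KI (66.9%) and 277 of the 361 of the control (76.7%). The level there was 213 CPM (186 to 242) in CF-KI against 295 CPM (261 to 332) in the control. At least 1 Nrg1 UMI was found in 9.76% of the 1506 CF-KI nuclei (Clopper-Pearson interval 8.31 to 11.4) and in 12.3% of the 1077 control nuclei (10.4 to 14.4). With each nucleus thinned to 500 UMIs, which left out 264 and 49 shallower nuclei, these shares were 7.73% and 8.75%. The free RNA level of Nrg1 in this class was 13.1 and 7.1 CPM, far under what was measured.

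Macrophage-like nuclei were next over both libraries together, at 17.2 CPM in CF-KI compared with 19.2 CPM in the control. Endocardial-like nuclei were 12.4-fold above them in CF-KI (7.91 to 20.4) and 15.4-fold in the control (9.94 to 24.9). The macrophage-like level lay near the free RNA level of 15.3 CPM in CF-KI and above that of 8.96 CPM in the control. The 22 control UMIs came from 11 of 995 macrophage-like nuclei, with 5 in a single nucleus. In cardiomyocyte-like nuclei, which carry the receptor of this ligand, Nrg1 had 13 UMIs in CF-KI against 1 in the control, 2.75 and 0.174 CPM. This pair was under the minimum of 20 UMIs, so no ratio was formed. Free RNA was estimated at 20.03% and 8.44% of this class, and the 6 endocardial markers summed to 102 and 68.6 CPM in it. The part of free RNA in these Nrg1 counts was not tested. Atrial cardiomyocyte-like nuclei had no Nrg1 UMI in either library, where 3 UMIs would have given 41.7 CPM in CF-KI compared with 16.1 CPM in the control.

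Within the endothelial-like class Nrg1 was uneven. Of the 25 control UMIs, 19 lay in 77 nuclei of cluster 15, whose leading genes were Nptx1, Wnt9b, Hapln1, Rprml and Dkk2. Wnt9b encodes a Wnt ligand and Hapln1 a link protein of the hyaluronan matrix. The level of Nrg1 in that cluster was 99.0 CPM (59.6 to 155) in the control and 59.7 CPM (19.4 to 139) in CF-KI, from 49 nuclei and 5 UMIs. The remaining endothelial-like nuclei lay in cluster 6, at 14.0 CPM in CF-KI against 2.15 CPM in the control, and in cluster 9, which had the capillary genes Rbp7, Car4 and Rgcc among its leading genes, at 9.88 and 7.87 CPM. Cluster 15 thus had more Nrg1 than these clusters and less than endocardial-like nuclei in the control, with intervals that did not overlap. In CF-KI its interval overlapped that of cluster 6, at 7.24 to 24.5 CPM, and not that of cluster 9, at 5.26 to 16.9 CPM.

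Between the libraries, Nrg1 in endocardial-like nuclei was lower in CF-KI by a log2 ratio of -0.47 (-0.73 to -0.21). This interval takes each UMI as independent, while the 230 and 277 UMIs came from 147 and 132 nuclei, so it may be too narrow. The intervals of the shares of nuclei with a UMI overlapped. The marker genes of this class were lower in CF-KI too: the 6 endocardial markers summed to 3514 CPM in CF-KI compared with 4652 CPM in the control. None of them was Nrg1. Free RNA was estimated at 60.9% of this class in CF-KI against 31.5% in the control, and its median mitochondrial share was 15.8% against 4.35%. With free RNA subtracted the ratio of Nrg1 was -0.53. With nuclei limited to 5% mitochondrial UMIs, which left 10 and 168 Nrg1 UMIs, the ratio was 0.16 (-0.93 to 1.07). Fibroblast-like nuclei had the opposite sign, with 22 Nrg1 UMIs in CF-KI against 8 in the control, 6.16 and 1.91 CPM, and a log2 ratio of 1.69 (0.47 to 3.07). Both levels were under the free RNA level of 9.98 and 5.42 CPM, and the 6 endocardial markers summed to 172 and 132 CPM in the same nuclei. The upper interval bounds of the levels, 9.33 and 3.77 CPM, were under it too, so the free RNA level was too high for Nrg1 there. The interval of the ratio included 0 with doublets kept (1.27, -0.02 to 2.70) and at a clustering resolution of 1.5 (1.24, -0.07 to 2.67). The ratio of Nrg1 in endothelial-like nuclei was -0.54 (-1.36 to 0.28), and it was 1.06 where coarser clustering placed fewer of the control's Nrg1 UMIs in the class (25 and 6). The macrophage-like ratio was -0.16 (-1.09 to 0.77).

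**Figure D2:**
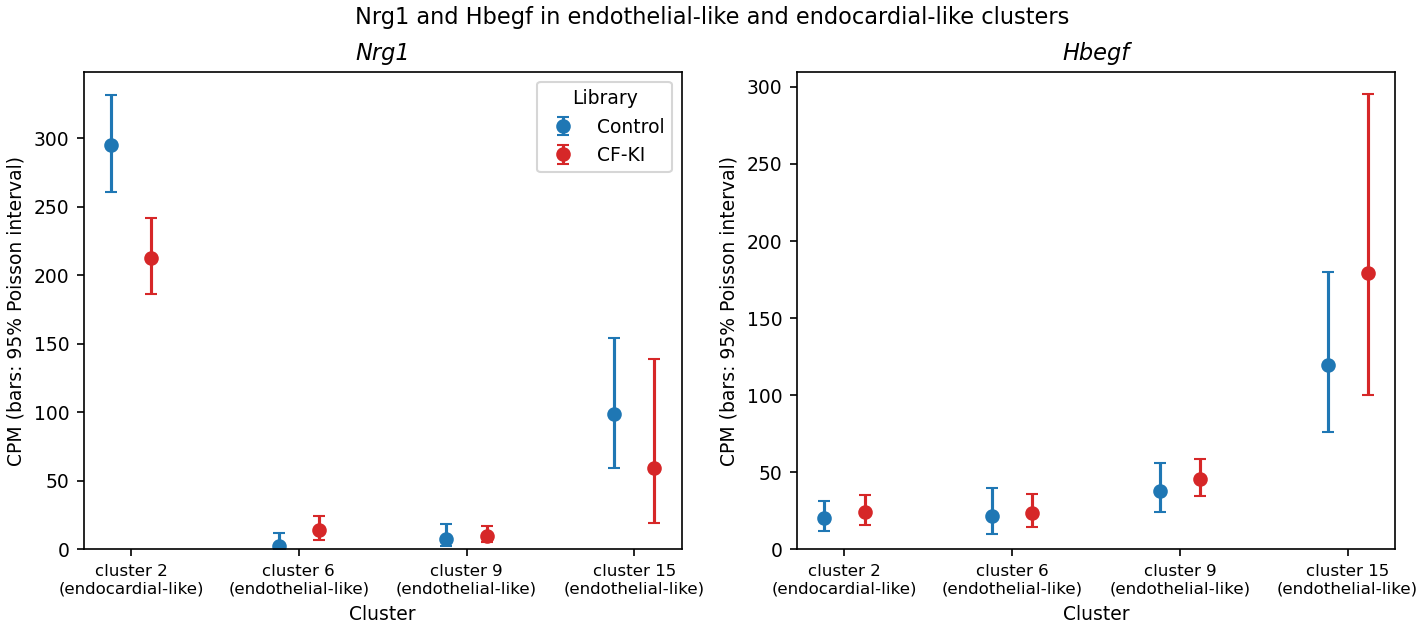
Nrg1 (left) and Hbegf (right) in the 4 clusters of the endocardial-like and endothelial-like classes, in CPM (vertical axis, from 0) with 95% Poisson intervals, for the control (blue) and CF-KI (red). Nrg1 peaks in cluster 2, at 213 and 295 CPM, and Hbegf in cluster 15, at 179 and 120 CPM.

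Hbegf encodes HB-EGF, a membrane-anchored ligand of EGFR and ErbB4 that is released by shedding (ENSMUSG00000024486). Endothelial-like nuclei had 95 Hbegf UMIs in CF-KI compared with 57 in the control, 42.1 CPM (34.1 to 51.5) and 44.1 CPM (33.4 to 57.2). The log2 ratio was -0.07 (-0.56 to 0.43), or 0.77 (-0.33 to 1.77) in the nuclei with at most 5% mitochondrial UMIs. Pericyte-like nuclei followed at 23.9 and 31.5 CPM and endocardial-like nuclei at 24.1 and 20.2 CPM, with intervals that overlapped each other. The endothelial-like level was 1.76-fold the pericyte-like one in CF-KI (0.889 to 3.97) and 1.40-fold in the control (0.758 to 2.79).

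Here too cluster 15 was highest. Its 49 nuclei of CF-KI held 15 of the 95 Hbegf UMIs of the class, and its 77 nuclei of the control held 23 of the 57. Hbegf was at 179 CPM (100 to 295) there in CF-KI and at 120 CPM (76.0 to 180) in the control. The capillary-gene cluster 9 had 45.6 and 37.8 CPM and cluster 6 had 23.4 and 21.5 CPM. Cluster 15 lay above both clusters in each library by more than the intervals. Cardiomyocyte-like nuclei had 74 and 91 Hbegf UMIs, and the level was 15.7 CPM (12.3 to 19.6) in CF-KI against 15.9 CPM (12.8 to 19.5) in the control, above free RNA levels of 3.44 and 1.13 CPM. The libraries did not differ beyond counting error there, with a log2 ratio of -0.02 (-0.48 to 0.44). In fibroblast-like nuclei Hbegf was near its free RNA level in both libraries, at 7.56 CPM against 8.005 and at 4.54 CPM against 3.21.

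Nrg4 encodes neuregulin 4, a ligand of ErbB4 that is known as a secreted product of brown fat (chromosome 9, 55220222 to 55326844, minus strand; ENSMUSG00000032311). It overlaps Fbxo22 on the opposite strand, and how the counting treated strand is not given in the sources used here. In adipocyte-like nuclei, 54 of 117 nuclei had a UMI in CF-KI (46.2%, 36.9 to 55.6) and 93 of 172 in the control (54.1%, 46.3 to 61.7). The level was 349 CPM (278 to 431) from 85 UMIs in CF-KI compared with 454 CPM (387 to 530) from 160 UMIs in the control. The free RNA level was 4.201 and 2.79 CPM. This class held 50.3% of the Nrg4 UMIs of CF-KI and 59.0% of those of the control, though it was 0.817% and 1.58% of the nuclei.

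Adipocyte-like nuclei were 25.5-fold above mesothelial-like nuclei in CF-KI (13.5 to 53.0) and 30.4-fold in the control (17.3 to 58.4). Mesothelial-like nuclei, with the RNA of the heart's outer lining, had 13.7 and 14.9 CPM from 11 and 13 UMIs. The log2 ratio of Nrg4 in adipocyte-like nuclei was -0.38 (-0.78 to 0.01), which counting error alone can span. The 6 adipocyte markers, among them Adipoq and Ucp1, were lower in the same direction, at 1862 CPM in CF-KI against 2737 CPM in the control. Cardiomyocyte-like nuclei had the next largest number of Nrg4 UMIs, 41 and 61, spread over 41 and 59 nuclei. The level was 8.67 CPM (6.22 to 11.8) in CF-KI compared with 10.6 CPM (8.13 to 13.6) in the control, above free RNA levels of 2.11 and 1.43 CPM. The log2 ratio there was -0.29 (-0.90 to 0.30).

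Erbb4, the neuregulin receptor of cardiomyocytes, lies on chromosome 1 (68032186 to 69108059, minus strand; ENSMUSG00000062209) and shares part of its strand with Gm16076. Cardiomyocyte-like nuclei held 143 of its 202 UMIs in CF-KI (70.8%) and 121 of its 171 in the control (70.8%). The level was 30.2 CPM (25.5 to 35.6) in CF-KI against 21.1 CPM (17.5 to 25.2) in the control, against free RNA levels of 2.52 and 0.902 CPM. A UMI was found in 5.07% of nuclei (4.26 to 5.98) in CF-KI against 5.17% (4.28 to 6.18), and in 1.43% and 1.37% after thinning. Fibroblast-like nuclei, which served as a class with little Erbb4, had a UMI in 0.172% and 0.167%. Median depth was 1603 and 2311 non-mitochondrial UMIs in cardiomyocyte-like nuclei and 753.5 and 959 in fibroblast-like nuclei.

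The log2 ratio of Erbb4 in cardiomyocyte-like nuclei was 0.52 (0.16 to 0.88), higher in CF-KI. The ratios of all genes of this class had a median of 0.19, and 40.5% of them had an interval that excluded 0. TMM scaling, which sets libraries level on a trimmed mean of gene ratios, lowered every ratio of the class by 0.21 and brought Erbb4 to 0.31 (-0.05 to 0.67), an interval that included 0, as did those under median-of-ratios scaling (0.26) and with clustering at resolutions of 0.4 (0.33) and 1.5 (0.22).

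In atrial cardiomyocyte-like nuclei, identified by Nppa, Sln and Myl4, Erbb4 had 4 UMIs in the 62 nuclei of CF-KI and 23 in the 115 of the control. The levels were 55.6 CPM (15.2 to 142) and 124 CPM (78.4 to 186). The control level was 5.87-fold that of the larger cardiomyocyte-like class (3.58 to 9.22), and the CF-KI level 1.84-fold (0.495 to 4.81). After thinning to 500 UMIs the control's log2 difference between these classes went from 2.55 to 1.83 (-0.17 to 3.38), with 4 UMIs left in the atrial class. The log2 ratio of CF-KI over control was -1.15 (-3.14 to 0.40). These nuclei also differed in quality: the median mitochondrial share was 22.3% in CF-KI compared with 1.47% in the control, and free RNA was estimated at 55.9% and 15.2%. Their part in the ratio was not tested. Macrophage-like nuclei had 15 Erbb4 UMIs in CF-KI against 3 in the control, in 13 and 3 nuclei. The free RNA level there was 8.996 and 4.24 CPM beside measured levels of 12.3 and 2.62 CPM.

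Erbb2, the partner receptor without a ligand, lies on chromosome 11 (98412470 to 98437716, plus strand; ENSMUSG00000062312) and overlaps Mien1 on the opposite strand. It was found at low levels in most classes, with 99 UMIs in CF-KI compared with 128 in the control. Fibroblast-like nuclei held the most, 33 and 56 UMIs, at 9.24 CPM (6.36 to 12.98) and 13.4 CPM (10.1 to 17.4). Pericyte-like nuclei had 18.6 and 14.5 CPM from 7 and 6 UMIs and mesothelial-like nuclei 8.71 and 16.1 CPM from 7 and 14. All neighbours in the first 5 places of the order overlapped. In cardiomyocyte-like nuclei, where the protein is the known partner of ErbB4, Erbb2 had 8 UMIs in 2605 nuclei of CF-KI and 13 in 2186 of the control. Those levels, 1.69 CPM (0.731 to 3.33) and 2.26 CPM (1.21 to 3.87), lay below those of fibroblast-like nuclei by more than the intervals in each library. The free RNA level was 1.24 and 0.675 CPM. At this depth no cardiomyocyte-like nucleus had UMIs of both Erbb2 and Erbb4, while 1 atrial nucleus of the control did. Only 8 and 13 cardiomyocyte-like nuclei had Erbb2, beside 132 and 113 with Erbb4, too few for the lack of shared nuclei to be read.

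All 4 ratios of Erbb2 that could be formed were below 0, and none had an interval that excluded 0. They were -0.42 (-1.90 to 0.96) in cardiomyocyte-like, -0.53 (-1.20 to 0.11) in fibroblast-like and -0.88 (-2.43 to 0.52) in mesothelial-like nuclei. In endothelial-like nuclei the counts were 15 and 18 UMIs, 6.65 and 13.9 CPM. That log2 ratio was -1.07 (-2.16 to 0.00), and TMM scaling brought it to -0.97.

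Erbb3, the neuregulin receptor with a weak kinase, lies on chromosome 10 (128567523 to 128589652, minus strand; ENSMUSG00000018166). It had the fewest UMIs of the 7 genes, 51 in CF-KI against 48 in the control. Cardiomyocyte-like nuclei held 21 and 29 of them, 4.44 CPM (2.75 to 6.79) and 5.05 CPM (3.38 to 7.25), above free RNA levels of 0.637 and 0.253 CPM. The log2 ratio was -0.19 (-1.07 to 0.67). The B cell-like level was higher in both libraries but rested on 2 UMIs in each. ErbB3 is known as a receptor of Schwann cells, and no cluster carried their markers. Sox10, the transcription factor of Schwann cells, had 6 and 5 UMIs over all nuclei. Of the nuclei with Erbb3 in this class, 1 in each library also had Erbb4.

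Egfr encodes the EGF receptor, on chromosome 11 (16752203 to 16918158, plus strand; ENSMUSG00000020122), and overlaps Egfros on the opposite strand. Fibroblast-like nuclei, the cells in which the allele was to be active, held 536 of 814 UMIs in CF-KI (65.8%) and 650 of 816 in the control (79.7%). The level was 150 CPM (138 to 163) in CF-KI compared with 155 CPM (144 to 168) in the control, with free RNA levels of 23.6 and 12.2 CPM. A UMI was found in 11.6% of the 4072 CF-KI nuclei (10.6 to 12.6) and 14.9% of the 3596 control nuclei (13.8 to 16.1). After thinning, the shares were 6.90% (6.11 to 7.76) and 7.35% (6.51 to 8.26). The log2 ratio was -0.05 (-0.22 to 0.12). In nuclei with at most 5% mitochondrial UMIs (55 of CF-KI, 1466 of the control) it was 1.00 (0.22 to 1.69) from 18 and 226 UMIs. Over all 4072 and 3596 fibroblast-like nuclei, the 8 fibroblast markers, which include Tcf21, summed to 21751 and 39011 CPM.

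The level of Egfr also varied little among fibroblast-like clusters. Of these, cluster 1 was mostly CF-KI (3331 and 150 nuclei) and cluster 3 mostly control (154 and 2400 nuclei). Egfr was at 148 CPM (133 to 163) in the CF-KI nuclei of cluster 1 and at 147 CPM (131 to 164) in the control nuclei of cluster 3. Cluster 7, led by Cilp, Myoc and Cd248, had 159 CPM in CF-KI against 167 CPM in the control. Mesothelial-like nuclei were next, at 57.2 CPM (41.9 to 76.3) and 50.5 CPM (36.7 to 67.8), and fibroblast-like nuclei were 2.62-fold (1.94 to 3.63) and 3.07-fold (2.26 to 4.27) above them.

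Egfr was higher in CF-KI in some of the classes where it was low. In cardiomyocyte-like nuclei there were 45 UMIs in CF-KI compared with 15 in the control, 9.52 CPM (6.94 to 12.7) and 2.61 CPM (1.46 to 4.31), a log2 ratio of 1.87 (1.00 to 2.81). In endocardial-like nuclei there were 36 and 14 UMIs, 33.3 and 14.9 CPM, a log2 ratio of 1.16 (0.23 to 2.17). In both classes the measured level was close to the free RNA level, which was 10.2 and 4.30 CPM in cardiomyocyte-like nuclei and 30.9 and 16.0 CPM in endocardial-like nuclei. The 8 fibroblast markers were higher there as well, at 1750 and 886 CPM in cardiomyocyte-like nuclei and at 5073 and 4259 CPM in endocardial-like nuclei, with none at 0. Macrophage-like nuclei, at 40.9 and 36.7 CPM, had a free RNA level of 36.3 and 20.2 CPM and a log2 ratio of 0.16 (-0.46 to 0.79). Endothelial-like nuclei had 34 and 16 Egfr UMIs and a log2 ratio of 0.28 (-0.61 to 1.24). Their levels were 15.1 CPM (10.4 to 21.1) in CF-KI and 12.4 CPM (7.08 to 20.1) in the control, beside free RNA levels of 25.3 and 18.8 CPM. The CF-KI interval lay wholly under the free RNA level, so that level was too high for Egfr there.

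**Figure D3:**
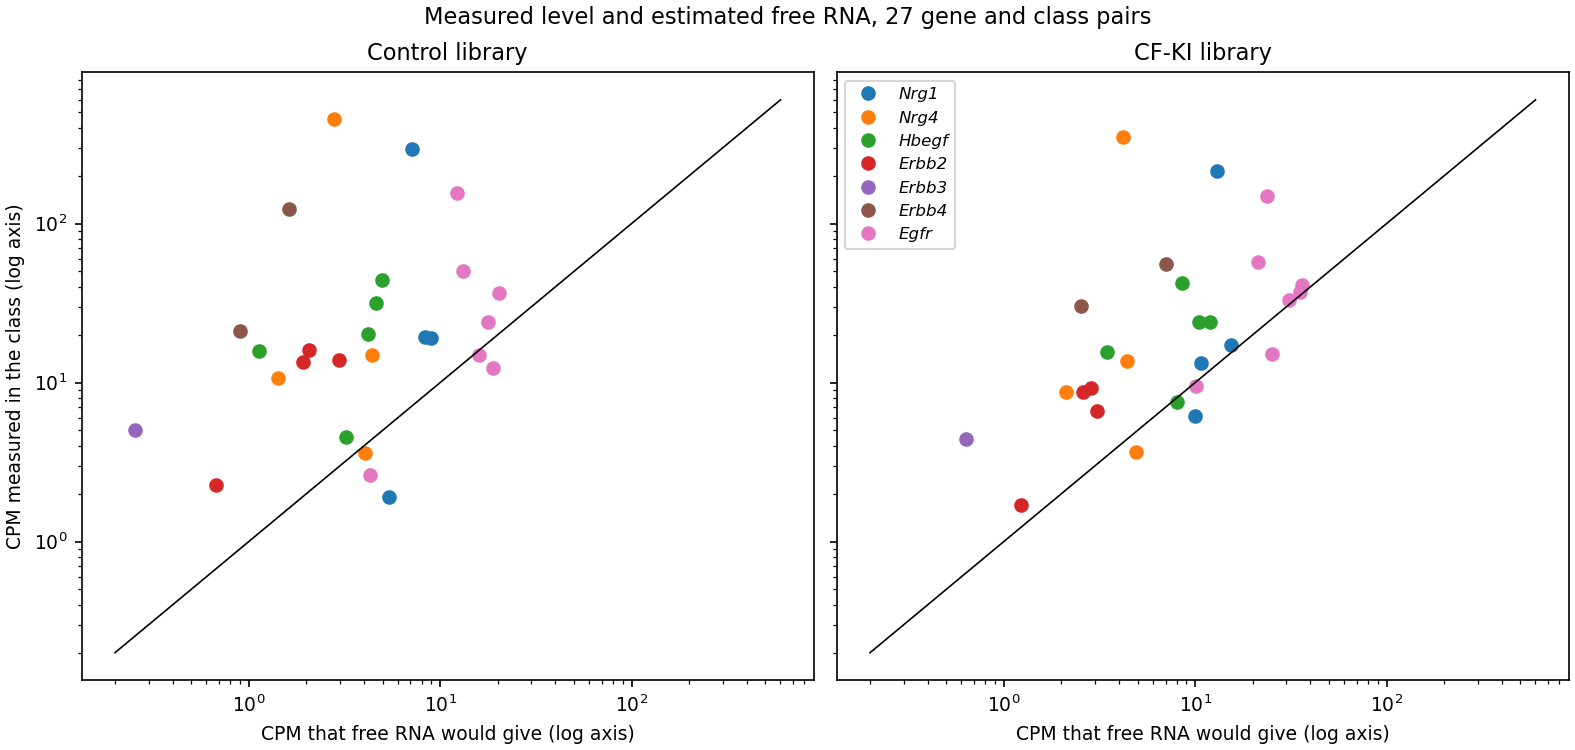
Measured level of a gene in a class (vertical axis, CPM, log scale) against its free RNA level (horizontal axis, CPM, log scale), for the 27 pairs with a ratio in the control (left) and CF-KI (right). The line marks equal values. The lower interval bound of the measured level was above the free RNA level for 20 pairs in the control and 15 in CF-KI.

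Of the 77 pairs of a gene and a class, 27 had at least 20 UMIs in both libraries together and were given a ratio, and 50 were under that minimum. In CF-KI 11 were higher and 16 lower. A ratio was past 2-fold for 5 of the 27 (18.5%), compared with 12.1% of the 78866 ratios of all genes in the same classes. With free RNA subtracted, 21 pairs kept a value above 0 in both libraries and 9 were past 2-fold, and under the 5% mitochondrial limit 2 of 12 were. The share of all genes was taken for the main setting only, so these 2 counts cannot be read against the 12.1%. The interval excluded 0 for 5 pairs (18.5%), compared with 28.6% of all. The pairs past 2-fold were Nrg1 in fibroblast-like nuclei and Egfr in cardiomyocyte-like and endocardial-like nuclei on the higher side, and Erbb2 in endothelial-like and Erbb4 in atrial cardiomyocyte-like nuclei on the lower side. Of these, the 3 higher ones had an interval that excluded 0, and all 3 had measured levels whose intervals did not clear the free RNA level in either library.

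By class, 1 of 6 members with a ratio was past 2-fold in cardiomyocyte-like nuclei, where 13.7% of all genes were. The count was 1 of 3 in endocardial-like nuclei (11.6% of all genes), 1 of 4 in endothelial-like nuclei (7.02%) and 1 of 5 in fibroblast-like nuclei (8.35%). The only member with a ratio in atrial cardiomyocyte-like nuclei was past 2-fold (30.4%). None was among the 2 in macrophage-like nuclei (13.1%), the 3 in mesothelial-like nuclei (9.91%), the 2 in pericyte-like nuclei (18.3%) or the 1 in adipocyte-like nuclei (18.1%). Counts this small cannot be set apart from those shares.

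**Figure D4:**
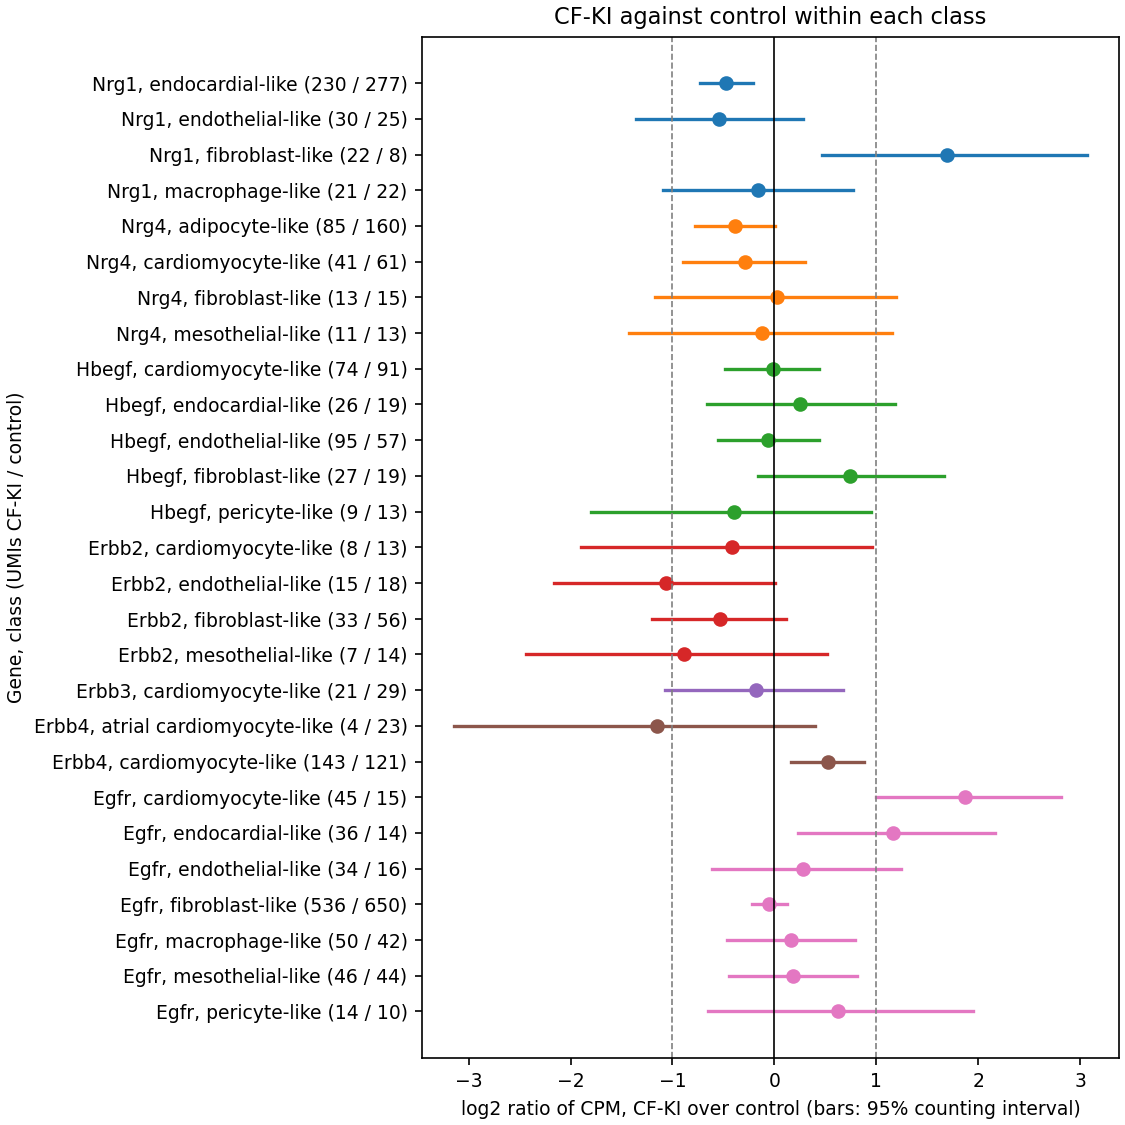
Log2 ratio of CPM, CF-KI over control (horizontal axis), for each of the 27 pairs of a gene and a class (vertical axis, with the UMIs in CF-KI and the control), with 95% counting intervals. The dashed lines mark 2-fold. Egfr in cardiomyocyte-like nuclei (1.87) and Nrg1 in fibroblast-like nuclei (1.69) lie farthest above 0.

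Of the 8 other ligands of the family, several had too few UMIs for an order of classes. Egf, the ligand after which the family is named, was highest in cardiomyocyte-like nuclei, at 27.7 CPM (131 UMIs) in CF-KI against 33.3 CPM (191 UMIs) in the control, with a log2 ratio of -0.26 (-0.60 to 0.06). Tgfa, another ligand of EGFR, was highest in mesothelial-like nuclei, at 42.3 and 33.3 CPM. Nrg2, a neuregulin that binds ErbB3 and ErbB4, had 17 and 37 UMIs in mesothelial-like nuclei, 21.1 and 42.5 CPM. That log2 ratio was -1.01 (-1.93 to -0.14). In atrial cardiomyocyte-like nuclei Nrg2 had 21 UMIs in 19 of the 115 control nuclei, 113 CPM (69.9 to 173). It had none in the 62 CF-KI nuclei, where the upper interval bound was 51.3 CPM. The difference in mitochondrial RNA and free RNA between these atrial nuclei, given with Erbb4, applies here too and its part was not tested. Areg, a further EGFR ligand, had 10 UMIs in 122 airway epithelial-like nuclei of the control, and Nrg3 had none in the kept nuclei. Btc had 44 and 48 UMIs spread over several classes, with 14 and 18 in cardiomyocyte-like nuclei. Ereg had 7 and 6 UMIs in all and Epgn 1 and 3.

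With these ligands, 5 lists of the pathway held 45 genes: other ligands, shedding enzymes and their partners, negative regulators, adaptors and co-factors, and transcriptional targets. In cardiomyocyte-like nuclei 36 of them had at least 20 UMIs. Of these, 7 were past 2-fold higher in CF-KI and 0 were past 2-fold lower, beside 11.9% higher and 1.76% lower among all genes of the class. The count past 2-fold in either direction was 4 with TMM scaling, 3 with median-of-ratios scaling and 1 of 29 with free RNA subtracted. No share of all genes was taken under these settings. The median log2 ratio was 0.18, compared with 0.19 over all genes of the class. Among the negative regulators, Errfi1, a feedback inhibitor of the EGF receptor, was at 20.1 CPM in CF-KI against 9.58 CPM in the control (log2 ratio 1.07, 0.57 to 1.57). The Sprouty genes Spry1 and Spry4, feedback inhibitors of the Ras pathway, had ratios of 1.23 (0.53 to 1.95) and 2.71 (1.32 to 4.45). The immediate early gene Egr1 had a ratio of 1.52 (0.58 to 2.53). All 4 were near or under their free RNA level, as Egfr was in the same nuclei. Cd9, a tetraspanin that associates with HB-EGF, was at 56.9 and 27.9 CPM, a ratio of 1.03 (0.74 to 1.32), beside free RNA levels of 46.0 and 19.5 CPM. Ptpn11, the phosphatase SHP2 that passes receptor signals on to Ras, had a ratio of -0.43 (-0.64 to -0.22) and stood at 65.6 and 88.3 CPM, well above free RNA levels of 17.8 and 6.87 CPM. Two-sided too was the shedding list, with Rhbdf1 at -0.97 (-1.61 to -0.35), Adam9 at 0.67 (0.16 to 1.19) and Bace1 at 0.41 (0.17 to 0.65). With free RNA subtracted, these ratios were -2.71, 0.26 and 0.29. Rhbdf1 was at 6.77 and 13.2 CPM beside free RNA levels of 5.27 and 3.41 CPM, and Adam9 at 16.1 and 10.1 CPM beside 7.31 and 2.77 CPM. Pik3r1 had a ratio of -0.14 (-0.23 to -0.06) and Ccnd1 one of 0.87 (0.37 to 1.38). Ccnd1 was at 18.2 and 9.93 CPM beside free RNA levels of 18.4 and 5.51 CPM.

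In fibroblast-like nuclei 38 of the 45 genes had at least 20 UMIs and 0 were past 2-fold, beside 8.35% of all genes of the class. Under the limit of 5% mitochondrial UMIs, 9 of 30 were, with no share of all genes taken under that limit. The median log2 ratio was 0.08 beside -0.02 over all genes. Errfi1 had the highest of the ratios whose intervals excluded 0, at 0.74 (0.61 to 0.86). It had 1284 UMIs and 360 CPM in CF-KI compared with 902 UMIs and 215 CPM in the control, above free RNA levels of 65.9 and 23.3 CPM. Lrig3, of a family of membrane proteins that restrain growth factor receptors, was at 23.2 and 38.7 CPM, a ratio of -0.74 (-1.13 to -0.34). Of the shedding genes, Rhbdf1 had a ratio of -0.49 (-0.75 to -0.24) and the protease gene Adam10 one of -0.46 (-0.75 to -0.17). Spry4 had a ratio of 0.45 (0.09 to 0.82) and Egr1 one of 0.24 (0.01 to 0.48). Grb2 was at 0.42 (0.08 to 0.77), Ptpn11 at 0.32 (0.07 to 0.58) and Cd9 at -0.28 (-0.39 to -0.17). With free RNA subtracted, the ratios of Grb2 and Ptpn11 were -0.09 and -0.26, those of Spry4 and Egr1 were 0.05 and 0.08, and that of Errfi1 was 0.61. The ratios below 0 became -0.97 for Lrig3, -0.66 for Rhbdf1, -1.23 for Adam10 and -0.64 for Cd9.

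In endothelial-like nuclei 34 of the genes had at least 20 UMIs and 0 were past 2-fold, beside 7.02% of all genes of the class. Under the limit of 5% mitochondrial UMIs 5 of 26 were, and with free RNA subtracted 4 of 33 were. Neither setting has a share of all genes beside it. The median was 0.00 beside -0.08 over all genes. Spry4 was at 73.6 and 44.1 CPM, a ratio of 0.74 (0.30 to 1.20), and Dusp6, a phosphatase induced by ERK signalling, had a ratio of 0.51 (0.11 to 0.92). Egr1 went the other way, at 65.6 and 123 CPM and a ratio of -0.91 (-1.24 to -0.58). Cd9, higher in CF-KI in cardiomyocyte-like nuclei, was lower here, at 312 and 551 CPM, a ratio of -0.82 (-0.98 to -0.67). Adam10 had a ratio of -0.47 (-0.76 to -0.17), Gab1 one of 0.61 (0.04 to 1.21) and Errfi1 one of 0.40 (0.02 to 0.80). With free RNA subtracted, the ratio of Errfi1 was -1.18.

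The genes with the pattern most like that of each member were sought over 22 points, the 11 classes in each library, as Pearson's r of log2(CPM + 1) among 11286 genes. The points share libraries and differ in depth, so r is a description. Nrg1 was most like Enpp6 (0.87), Vwf (0.85) and Smoc1 (0.84), and Vwf is itself an endocardial marker used for naming. Nrg4 was most like Ctcflos (0.87), Acsl1 (0.87) and 2810004N23Rik (0.85), Erbb4 like Speg (0.91), Gm40604 (0.89) and Csdc2 (0.89), and Egfr like Cd248 (0.92), Abca6 (0.92) and Pcdh9 (0.91). Hbegf was most like Apbb2 (0.83), Mettl9 (0.82) and Pcdh1 (0.81). Values for Erbb2 with Utp4 (0.87), Pcid2 (0.86) and Gtpbp3 (0.85) and for Erbb3 with Cd28 (0.75), Rasa2 (0.71) and Trim7 (0.71) rest on few UMIs. Between members the highest r was that of Erbb2 with Hbegf (0.49) and the lowest that of Egfr with Erbb4 (-0.52).

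At this depth each receptor was found in few nuclei of most classes, so few nuclei could show 2 of them. The shared counts were not set against those that independent detection would give, and do not show whether genes keep apart. In fibroblast-like nuclei Egfr was found in 473 and 537 nuclei and Erbb2 in 33 and 52. Egfr and Erbb2 had a UMI each in 5 of 4072 fibroblast-like nuclei of CF-KI and in 13 of 3596 of the control. Erbb4 and its ligand Nrg4 were found together in 3 cardiomyocyte-like nuclei of CF-KI and 8 of the control. Nrg1 and Erbb4 shared no nucleus in the endocardial-like class, where 147 and 132 nuclei had Nrg1 and 5 and 2 had Erbb4.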

How the data were processed

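Per the file headers, the authors' tables came from Cell Ranger 6.1.1, and they hold UMI counts as whole numbers for each gene in each barcode. The submitters' processing notes name mm10. Libraries used the 10x Genomics 3′ v3 kit. Barcodes with at least 200 genes were kept, Scrublet doublets were removed in each library (650 and 299), and no mitochondrial limit was set, since 15.4% of kept CF-KI nuclei and 60.7% of control nuclei had at most 5%. Nuclei were clustered together with scanpy 1.11.5 (2000 variable genes, 30 components, 15 neighbours, Leiden resolution 0.8), leaving out the members, the pathway genes, mitochondrial and ribosomal protein genes. A cluster was named from marker lists where at least 3 markers were raised. One cluster with a median mitochondrial share above 40% was set apart.

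CPM was computed over the non-mitochondrial UMIs of a class, with exact Poisson intervals, and shares have Clopper-Pearson intervals. Ratios have conditional exact binomial intervals, for classes of 50 or more nuclei per library and genes with at least 20 UMIs in both together. Where a zero is given with the level of 3 UMIs, that level is lower than the upper bound of the interval. Ratio intervals were checked on simulated independent Poisson counts, the model they assume. That check cannot show whether they hold for UMIs that gather within nuclei, where they may be too narrow. The free RNA share is an estimate: the median, over markers foreign to a class, of a marker's CPM in the class over its CPM in all kept nuclei of the library. Positions are from GENCODE vM21 on GRCm38. The named genes are the 7 members, the other ligands, for each pathway list up to 3 genes with the largest ratios whose intervals exclude 0 in each of 3 classes, and the 3 genes most like each member. Members and lists were chosen with earlier results of these data known. Alternatives were limits of 5% and 20% mitochondrial UMIs, at least 500 genes, doublets kept, resolutions of 0.4 and 1.5, the set-apart cluster put back, TMM (edgeR 4.0.16) and median-of-ratios (DESeq2 1.42.0) scaling, free RNA subtracted, and thinning to 500 UMIs.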

Additional observations from a re-analysis of the deposited data

Results flagged for a closer look

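Egfr was found in the cluster of nuclei with a very high mitochondrial share, which was set apart from the classes and entered only the alternative that put it back. In CF-KI it was at 35.3 CPM there (24.6 to 49.1), with 35 UMIs in 32 of 1833 nuclei, and in the control at 4.87 CPM (0.123 to 27.1), with 1 UMI in 220 nuclei. The cluster carries cardiomyocyte genes, and free RNA was estimated at 60.9% and 35.9% of its RNA. The free RNA level of Egfr was 30.9 and 18.3 CPM, inside the interval of the measured level in each library.

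Nrg1 differed in opposite directions in 2 classes. Its log2 ratio of CF-KI over control was -0.47 in endocardial-like nuclei and 1.69 in fibroblast-like nuclei, where its level lay under the free RNA level. The difference between the ratios was not tested.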

How the results depend on the processing

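No paired analysis was possible because each group had 1 library, and for the same reason no library could be left out. The limit of 5% mitochondrial UMIs left 55 CF-KI fibroblast-like and 30 endocardial-like nuclei. Under it Nrg1 in endocardial-like nuclei turned to a log2 ratio of 0.16 (10 and 168 UMIs), Hbegf in endothelial-like nuclei moved to 0.77 and Egfr in fibroblast-like nuclei to 1.00 (18 and 226 UMIs). Pairs past 2-fold numbered 2 of 12 under that limit and 9 of 21 with free RNA subtracted. Shares of all genes past 2-fold were taken for the main setting only, so the counts under other settings have none beside them. On the log2 scale, Nrg1 in endocardial-like over macrophage-like nuclei of the control was 5.26 after thinning. Nrg4 in adipocyte-like over mesothelial-like nuclei of CF-KI was 5.82 under the 5% limit and 5.79 after thinning. Erbb4 in atrial over other cardiomyocyte-like nuclei of the control was 1.83 after thinning (-0.17 to 3.38), and Egfr in fibroblast-like over mesothelial-like nuclei of CF-KI was 3.64 under the 5% limit. The cause was not tested. Past 2-fold, pathway genes in cardiomyocyte-like nuclei numbered 4 with TMM and 1 with free RNA subtracted, and in fibroblast-like nuclei 9 under the 5% limit. Of 323 alternative values, 282 stayed within counting error or 1.5 times the count, 40 moved further, and 1 whose own interval excluded 0 changed sign, which was Nrg1 in endocardial-like nuclei. Ratios with an interval that included 0 also changed sign under some settings, and 13 values could not be computed. Most values rest on under 100 UMIs per library, which limits what can be seen.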
